A study of Mus musculus with 24 samples.

Results

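C57epi.1 and Bm12.4 are mouse epithelial cell lines from the upper reproductive tract, compared here after culture in an inflammatory supernatant. C57epi.1 comes from C57BL/6 mice. Bm12.4 comes from B6(C)-H2-Ab1bm12/KhEgJ mice, which carry the bm12 allele of H2-Ab1, the beta chain of an MHC class II molecule. The comparison holds 8 arrays, 4 of each line, chosen by their labels from the 24 arrays of the series. The supernatant was RPMI conditioned by a CD4 T cell clone specific for Chlamydia together with infected epithelial cells, given at 33% (v/v) and brought to 4 ng/ml interferon-gamma. The same lines in plain RPMI, 4 arrays each, give the baseline. The other 8 arrays of the series are GM-CSF-grown bone marrow macrophages with and without the supernatant, and they enter the estimate of the residual spread and serve once as a reference level for marker genes. RNA levels were read on Affymetrix whole-transcript arrays as log2 values, and 19938 genes were tested. The labels do not say whether the 4 replicates of a group were separate cultures. The p-values therefore rest on array-to-array spread alone, which may be technical.

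Interferon-gamma binds a receptor of Ifngr1 and Ifngr2 chains and signals through the kinases Jak1 and Jak2. Among its targets are transcription factors such as Irf1 and Ciita, the genes of antigen processing, chemokines that attract T cells, and enzymes that limit the growth of intracellular bacteria such as Chlamydia. Epithelial cells do not normally present antigen on MHC class II, and acquire it under this cytokine. Type I interferons act through another receptor and induce an overlapping antiviral set.

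The lines differed widely in the supernatant. Genes counted as called where limma gave an adjusted p below 0.05, with Benjamini-Hochberg adjustment over all genes tested. Differences are C57epi.1 minus Bm12.4 on the log2 scale, so positive values are higher in C57epi.1. Of 19938 genes, 5968 were called (29.9%), 2860 of them higher in C57epi.1 (14.3%) and 3108 higher in Bm12.4 (15.6%). At least 2-fold differences were called for 1991 genes (9.99%), 896 higher in C57epi.1 and 1095 higher in Bm12.4, and at least 16-fold ones for 128, of which 39 were higher in C57epi.1 and 89 in Bm12.4. In 6568 genes (32.9%) the 4 arrays of 1 line all lay beyond the 4 of the other, and 5438 of these were also called. Any count of called members of a gene group has to be read against these shares.

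Arrays of 1 line were close to each other across genes, with Pearson correlations of 0.9925 to 0.9975 in C57epi.1 and 0.9866 to 0.9964 in Bm12.4, against 0.9358 to 0.9544 between lines. Array medians lay between 5.38 and 5.51. Replicates 1 and 2 stood apart from replicates 3 and 4 in some groups. Between these sets limma called 872 genes in Bm12.4 in supernatant and 0 in C57epi.1 in supernatant (1303 at an unadjusted p under 0.05), and 5984 and 4553 in the media arrays of Bm12.4 and C57epi.1. The labels name no batch. The supernatant comparison gave 4958 calls with replicates 1 and 2 alone and 6735 with replicates 3 and 4 alone. Of these, 4418 were called in both sets with the same direction and 1 with opposite directions.

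The labelled cell type was checked against markers. Both lines carried high Krt19, a keratin of simple epithelia, at 10.90, 11.93, 11.99 and 12.14 in C57epi.1 and 12.49, 12.16, 11.89 and 11.94 in Bm12.4. The epithelial adhesion genes Epcam (3.75 ± 0.15 and 3.67 ± 0.20, SD, n = 4, in C57epi.1 and Bm12.4) and Cdh1 (4.30 ± 0.12 and 4.39 ± 0.05) were at levels where signal cannot be told from background here. Krt8, the other common simple-epithelium keratin, stood at 9.03 ± 0.12 in C57epi.1 against 5.78 ± 0.10 in Bm12.4, differing by 3.25 (adjusted p = 1.01e-12), and Krt18 differed by 0.75 (adjusted p = 0.000393). Vim, the intermediate filament of mesenchymal cells, was high in both lines, at 13.35 ± 0.05 and 12.49 ± 0.10. Of 11 epithelial identity markers, 2 were called higher in C57epi.1 and 0 higher in Bm12.4.

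The genes that define leukocytes and endothelium were low in both lines. Ptprc and Csf1r, which define leukocytes and macrophages, stood at 3.96 ± 0.18 and 4.38 ± 0.09 in C57epi.1 and at 4.10 ± 0.10 and 4.55 ± 0.09 in Bm12.4. Neither was called, though Csf1r was called with array weights (−0.22, adjusted p = 0.00887), and in treated macrophages the means were 11.4 and 11.9. Of 17 macrophage and leukocyte markers, 1 was called higher in C57epi.1 (Lyz2, 0.61, and not with replicates 3 and 4 alone, where its adjusted p was 0.117) and 2 higher in Bm12.4 (Fcgr3, −1.05, and Cybb, −0.42). The sum of these 17 on the linear scale ran from 319 to 461 over the C57epi.1 arrays and from 366 to 441 over the Bm12.4 arrays. Of 15 T and B cell markers 0 were called in limma, with Cd3e at 4.67 ± 0.10 and 4.62 ± 0.12, and their sum ran from 220 to 234 and from 209 to 239. Pecam1, the defining endothelial gene, was at 3.85 ± 0.07 and 3.92 ± 0.15. Of 11 neutrophil, 9 dendritic cell, 11 endothelial and 9 adipocyte markers, the genes called were Mmp8 (−2.90), Zbtb46 (0.55), Tek (−1.67), Lpl (4.25) and Retn (−0.84). Lpl, a lipase that adipocytes share with other cells, stood at 8.54 in C57epi.1 and 4.29 in Bm12.4, and the linear sum of the 9 adipocyte markers ran from 433 to 742 and from 164 to 202. The part of other cells in the results was not tested.

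The largest differences fell in genes of varied function. Among those higher in C57epi.1 were the pantetheinase Vnn1, the stress-response gene Niban1, the non-muscle myosin Myh10, the fibroblast-type collagen Col1a2, the collagen-crosslinking enzyme Lox, the prolyl hydroxylase P3h2 and the growth factor Fgf7. Among those higher in Bm12.4 were the lubricating proteoglycan Prg4, the matrix protein Prelp, the vessel growth factor Angpt1, the carbonic anhydrase Car13 and the receptor chain Il13ra1. Vnn1 stood at 11.83, 11.75, 11.70 and 11.87 in C57epi.1 and at 3.82, 3.88, 4.16 and 3.92 in Bm12.4, 230-fold apart (7.84, SE 0.21, adjusted p = 2.9e-18). Prg4 stood at 4.45, 5.36, 4.58 and 4.89 in C57epi.1 and at 12.76, 12.83, 13.10 and 13.02 in Bm12.4, 276-fold apart (−8.11, SE 0.55, adjusted p = 6.6e-11). That the arrays do not overlap was part of how these genes were chosen.

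Next to Vnn1 came Niban1 (6.65), the zinc finger gene Zfp979 (6.43), Myh10 (6.38), Fgf7 and Col1a2 (6.17 each), Lox (6.05), the amino acid transporter Slc38a1 (5.61), the zinc finger gene Zfp991 (5.59), P3h2 (5.49), the long noncoding RNA Lncenc1 (5.38) and Dppa2 (5.30), a gene of early embryonic cells. Next to Prg4 came Pkhd1l1 (−7.74), Tmem45a (−7.49), Parp12 (−7.39), Car13 (−7.21), Angpt1 (−6.92), the protease-family gene Capn6 (−6.86), Il13ra1 (−6.68), Prelp (−6.64), the aldehyde oxidase Aox3 (−6.61), the nucleotide kinase Cmpk2 (−6.58) and Nkain4 (−6.46). Zfp979 and Zfp991 belong to a large family of similar sequence, so their signal may be shared with relatives. In 23 of these 24 genes the line with the lower signal had a mean under 6, so most of these folds set a high signal against one near the low end of the scale.

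**Figure D1:**
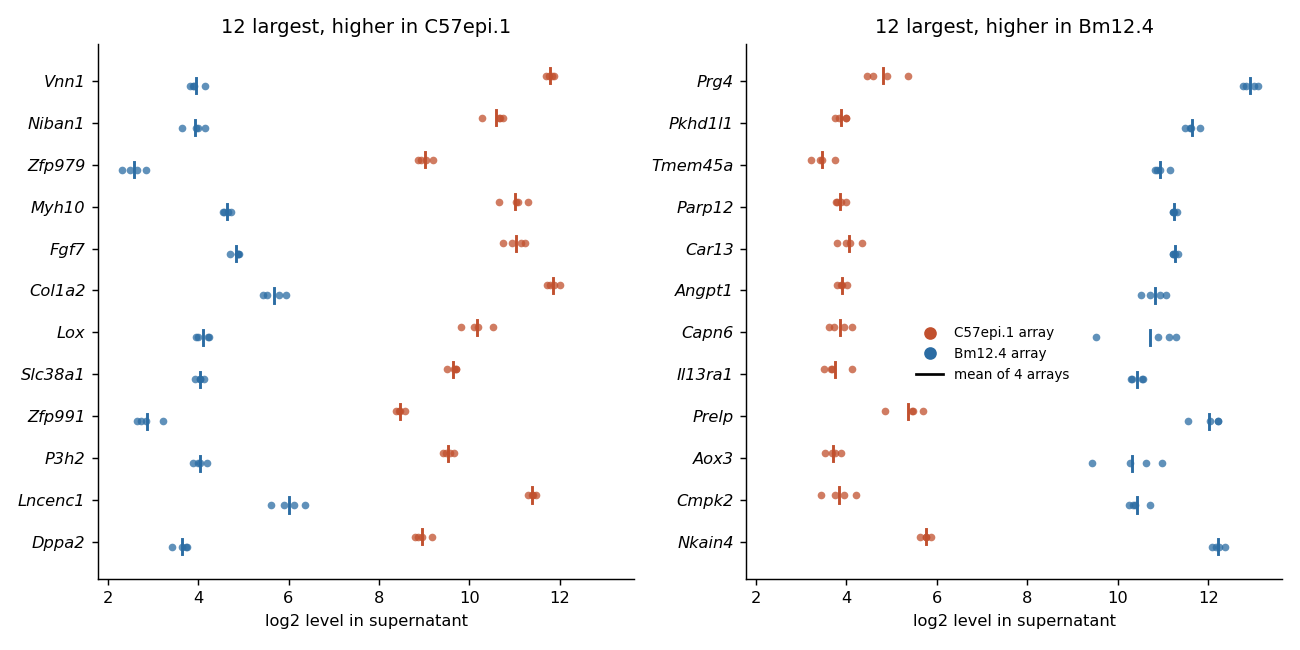
Log2 level in supernatant (x axis) of the 12 genes with the largest called difference in each direction, with 1 point per array and a bar at the mean of 4 arrays. The genes were chosen so that the arrays of C57epi.1 (orange) and Bm12.4 (blue) do not overlap, as with Vnn1 near 11.8 against 3.9 and Prg4 near 4.8 against 12.9.

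Most of the difference in supernatant was already there in media. In media 4873 genes were called (24.4%), 2383 higher in C57epi.1 (12%) and 2490 higher in Bm12.4 (12.5%). Of the supernatant calls, 3545 were called in media with the same direction, which is 59.4% of the supernatant calls and 72.7% of the media calls, and 39 were called with opposite directions. Across genes, which are not independent replicates, the differences in supernatant and media correlated with r = 0.867. A gene called in supernatant and not in media is not thereby a response difference. Of 2384 such genes, 353 had a called response difference, which is the interaction test of whether the difference between the lines itself differed between supernatant and media. In all 803 genes passed this test (4.03%), 397 with a larger C57epi.1 minus Bm12.4 value in supernatant (1.99%) and 406 with a smaller one (2.04%). That count was 426 with replicates 1 and 2 alone and 2401 with replicates 3 and 4 alone, with 301 genes called in both sets in the same direction and 1 in opposite directions. It was 534 without C57epi.1 media replicate 4 and 1263 without C57epi.1 media replicate 2.

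**Figure D2:**
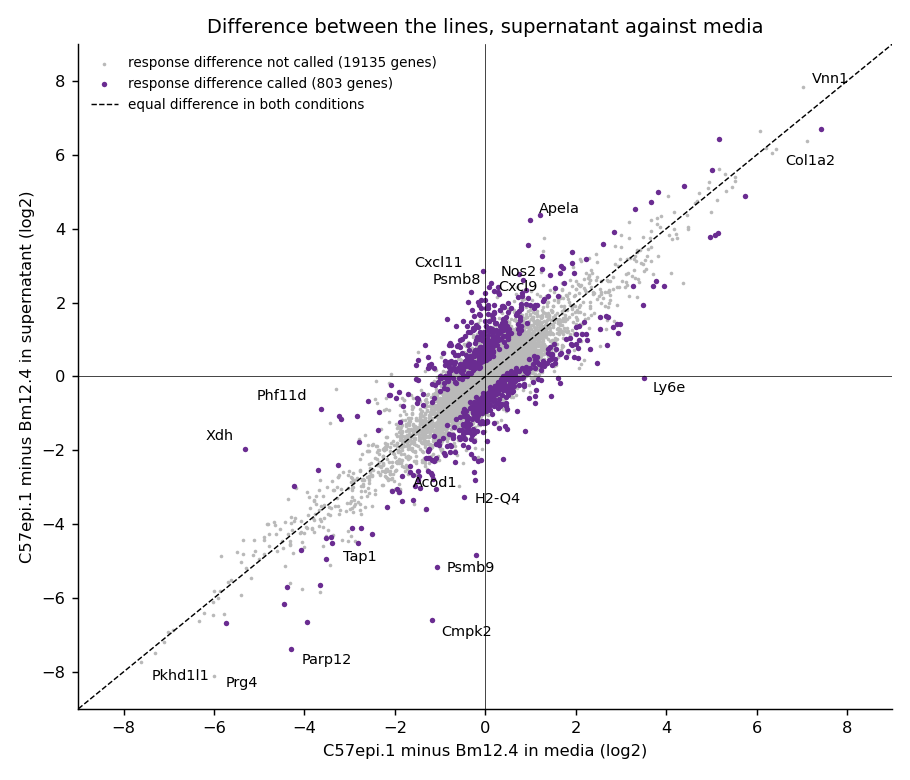
Difference C57epi.1 minus Bm12.4 (log2) in media (x axis) and in supernatant (y axis), 1 point per gene for 19938 genes. Most genes lie along the dashed line of equal difference, and the 803 genes with a called response difference (purple) lie off it, with Cmpk2 and Psmb9 far below the line and Cxcl11, Psmb8, Xdh and Phf11d above it.

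The genes of MHC class I antigen processing split within 1 stretch of a chromosome. The proteasome subunit genes Psmb9 and Psmb8 and the peptide transporter genes Tap1 and Tap2 are neighbours in the MHC region of chromosome 17, in the order Psmb9, Tap1, Psmb8, Tap2. Psmb8, Psmb9 and Psmb10 encode the subunits that turn the standard proteasome into the immunoproteasome, and Tap1 and Tap2 form the transporter that carries the resulting peptides into the endoplasmic reticulum. Tap1 and Psmb9 were low in C57epi.1, Psmb8 was low in Bm12.4, and Tap2 and Psmb10 were not called. Tap1 stood at 6.13, 6.84, 7.16 and 6.61 in C57epi.1 and at 10.96, 11.21, 11.32 and 11.31 in Bm12.4, 22.9-fold apart (−4.51, SE 0.20, adjusted p = 2.87e-14). Psmb9 stood at 6.18, 5.81, 6.18 and 6.14 in C57epi.1 and at 10.90, 11.30, 11.39 and 11.34 in Bm12.4, 35.6-fold apart (−5.16, SE 0.21, adjusted p = 9.53e-15). For both genes every C57epi.1 array lay below every Bm12.4 array. In Psmb8 the order was the other way, with 8.09, 8.09, 8.36 and 8.24 in C57epi.1 against 5.86, 6.11, 5.79 and 5.81 in Bm12.4, a 4.93-fold difference (2.30, SE 0.12, adjusted p = 3.31e-13).

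The response difference was called for all 3 genes, at −4.09 for Psmb9 (adjusted p = 2.79e-08), −1.13 for Tap1 (adjusted p = 0.0251) and 2.10 for Psmb8 (adjusted p = 6.46e-08). In media, Psmb9 had means of 5.73 in C57epi.1 and 6.79 in Bm12.4, so the level in treated C57epi.1, 6.08, was below that of untreated Bm12.4. Tap1 had media means of 4.36 and 7.75, and Psmb8 of 5.11 and 4.91. Tap2 (8.51 ± 0.12 and 8.83 ± 0.28, difference −0.32, SE 0.20, adjusted p = 0.299) and Psmb10 (11.23 ± 0.12 and 11.16 ± 0.19, difference 0.07, SE 0.18, adjusted p = 0.867) did not pass the test. Tap2 was called with array weights (adjusted p = 0.0258), with replicate number as a block (adjusted p = 0.0278) and with replicates 3 and 4 alone (adjusted p = 0.0416). These 2 genes, chosen after their values were seen, share the chromosome stretch (Tap2) or the complex (Psmb10) with the genes that differed.

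Psmb9 and Tap1 are read in opposite directions from a shared stretch of sequence, printed here because both genes were low in C57epi.1 while the next gene, Psmb8, was not. The sequences are from RefSeq (GRCm38.p6), 5′ to 3′ along the strand given, in lower case. Capitals mark matches to a pair of GAAA repeats with 2 bases between them, a core of the elements bound by interferon regulatory factors, searched on both strands. Of all 32851 RefSeq windows of the 250 bases before a start, 2.98% hold such a match. The bases between Psmb9 and Tap1 (chr17:34187331-34187555, plus strand, 225 bases), and those before Psmb8 (chr17:34197945-34198194, plus strand), read as follows.
Psmb9 to Tap1: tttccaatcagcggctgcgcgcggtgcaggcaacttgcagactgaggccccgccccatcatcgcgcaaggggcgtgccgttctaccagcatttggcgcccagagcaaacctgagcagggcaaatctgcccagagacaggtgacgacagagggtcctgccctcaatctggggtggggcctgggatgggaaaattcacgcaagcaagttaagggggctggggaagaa
Psmb8: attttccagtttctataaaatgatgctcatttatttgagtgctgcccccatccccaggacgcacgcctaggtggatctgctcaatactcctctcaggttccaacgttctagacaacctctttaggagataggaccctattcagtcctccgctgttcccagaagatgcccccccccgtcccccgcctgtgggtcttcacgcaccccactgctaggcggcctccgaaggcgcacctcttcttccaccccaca
The stretch between Psmb9 and Tap1 and the window before Psmb8 each held 0 matches. That says only that these letters are not in these windows.

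Of 26 measured genes of MHC class I and peptide loading, 6 were called higher in C57epi.1 and 6 higher in Bm12.4. The share called was 46.2%, against 29.9% of all genes, and the median −0.07, against 0.00 over all genes. The class I gene H2-Q4 was 9.66-fold higher in Bm12.4, at 6.51, 6.37, 6.57 and 6.69 against 9.21, 10.02, 9.95 and 10.05, and had a response difference of −2.79 (adjusted p = 2.27e-06). Class I genes are close in sequence, so their probe sets may share signal. Nlrc5, the transcription activator of class I genes, was 2.39-fold higher in Bm12.4 (−1.26, adjusted p = 5.39e-08) with a response difference of −1.46 (adjusted p = 3.96e-05). H2-T10 (−0.95) and H2-Q5 (−0.84) were also higher there. The chaperones Calr (1.21), Canx (0.38) and Pdia3 (0.23) and the trimming peptidase Erap1 (0.47) were higher in C57epi.1. B2m, the light chain of every class I molecule, stood at 13.2 and 13.4 and was not called (−0.20). H2-K1 and H2-D1 lacked a probe set annotated to them alone, and they were not analysed here.

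The MHC class II activator Ciita was not called, at 6.83, 6.78, 6.63 and 6.64 in C57epi.1 and 6.42, 6.81, 6.87 and 6.90 in Bm12.4 (−0.03, SE 0.14, adjusted p = 0.926). H2-Ab1, the gene that carries the bm12 allele in Bm12.4, stood at 7.37, 7.85, 7.75 and 7.55 in C57epi.1 and at 7.16, 9.18, 10.04 and 9.56 in Bm12.4 (−1.35, SE 0.35, adjusted p = 0.00451). Bm12.4 replicate 1 lay below all C57epi.1 arrays and the other three above them, so the groups overlapped. The call was lost when only the arrays compared were fitted (adjusted p = 0.0558) and with replicates 1 and 2 alone (−0.56, adjusted p = 0.462). Its partner H2-Aa had the same spread in Bm12.4, with 7.22 in replicate 1 and 8.86 to 9.85 in the others, against 8.59 to 8.84 in C57epi.1, and was not called (−0.09, adjusted p = 0.904). It was called without Bm12.4 replicate 1 (−0.62, adjusted p = 0.0156) and with replicates 3 and 4 alone (−0.86, adjusted p = 0.00125). The invariant chain Cd74 was not called (−0.83, adjusted p = 0.0963). Cd74 was called without Bm12.4 replicate 1 (−1.15, adjusted p = 0.0167), with the arrays compared alone (adjusted p = 0.033) and with array weights (adjusted p = 0.00162). It was also called with replicate number as a block (adjusted p = 0.00522) and with replicates 3 and 4 alone (−1.23, adjusted p = 2.28e-06).

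The proteases that process class II cargo differed the other way. Ctss, which trims the invariant chain, was 3.28-fold higher in C57epi.1 (7.51, 7.81, 8.05 and 8.25 against 5.53, 6.39, 6.37 and 6.48, adjusted p = 2.59e-08), with a response difference of 1.52 (adjusted p = 0.000484), and Ctsl was 2.22-fold higher. Of 15 class II genes and regulators, 4 were called higher in C57epi.1 (with Rfxap at 0.59 and H2-Oa at 0.84, the latter not called with replicates 1 and 2 alone, adjusted p = 0.0758) and 2 higher in Bm12.4 (H2-Ab1 and Rfxank, −0.61). The count of called members was 3 with replicates 1 and 2 alone and 10 with replicates 3 and 4 alone.

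**Figure D3:**
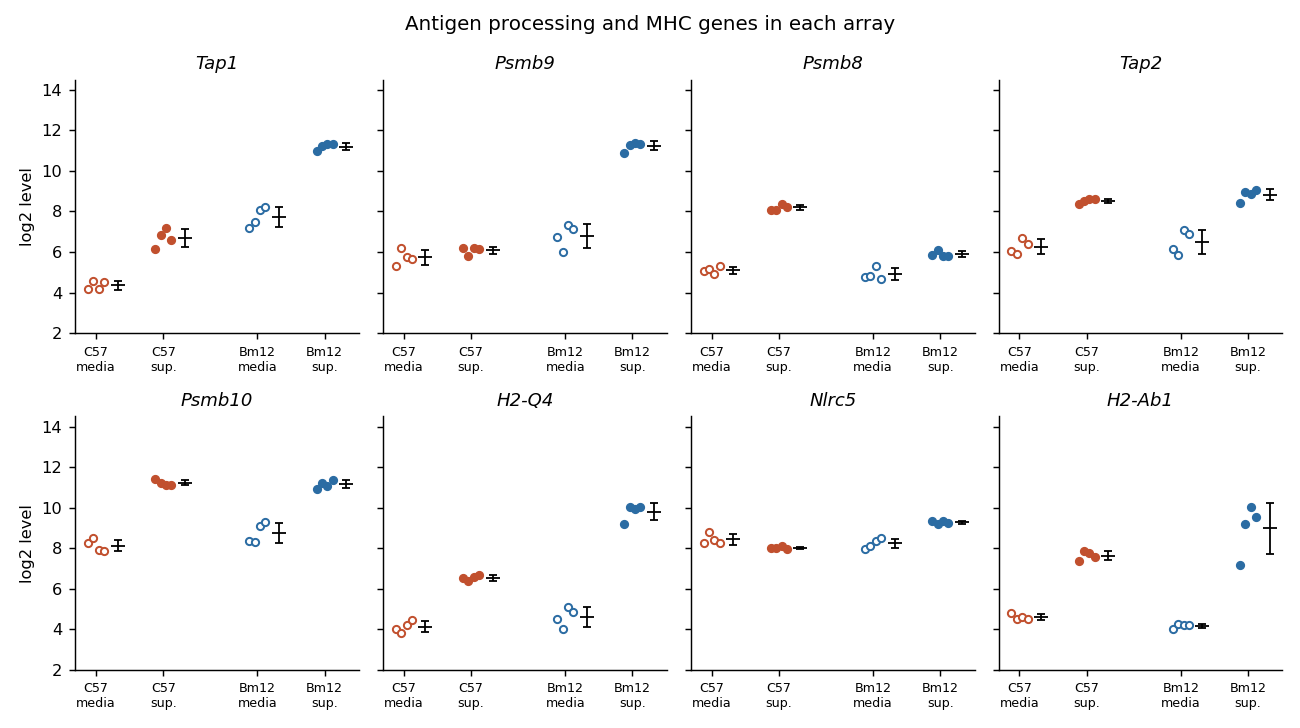
Log2 level (y axis) of 8 antigen processing and MHC genes in each array of C57epi.1 (orange) and Bm12.4 (blue), in media (open points) and in supernatant (filled points), with the mean and SD of 4 arrays in black. Tap1 and Psmb9 were near 11.2 in treated Bm12.4 and at 6.68 and 6.08 in treated C57epi.1, Psmb8 was higher in treated C57epi.1, Tap2 and Psmb10 were near each other in both lines, and H2-Ab1 was spread between 7.16 and 10.04 in treated Bm12.4.

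In the interferon pathway itself, receptor and kinase genes were called in both directions. The receptor chain Ifngr1 was 1.5-fold higher in Bm12.4 (8.25, 8.15, 8.26 and 8.45 against 8.86, 8.89, 8.90 and 8.79, adjusted p = 2.5e-05), and Ifngr2 was not called (−0.15, SE 0.12, adjusted p = 0.425). Jak1 was 2.27-fold higher in C57epi.1 (adjusted p = 9.77e-09), and Jak2 2.85-fold (adjusted p = 5.81e-08) and Tyk2 2.05-fold (adjusted p = 2.91e-07) higher in Bm12.4. Irf1 was 1.54-fold higher in C57epi.1 (12.20, 11.89, 11.83 and 11.91 against 11.44, 11.38, 11.29 and 11.23, adjusted p = 0.00662), with a response difference of 1.14 (adjusted p = 0.00789). Averaging the probe sets of Irf1 ended the supernatant call (0.28, adjusted p = 0.118). Socs1, a feedback inhibitor, was higher in Bm12.4 by a small amount (−0.40, adjusted p = 0.0347) and lost the call without any 1 of 6 arrays (adjusted p from 0.0617 to 0.109). Socs2 was 7.17-fold higher in Bm12.4, as it was in media. Of 25 genes of this pathway, 3 were called higher in C57epi.1 and 9 higher in Bm12.4, a share of 48.0% against 29.9% of all genes.

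Type I interferon-stimulated genes were called more often towards Bm12.4. Of 52, 5 were called higher in C57epi.1 and 16 higher in Bm12.4, a share of 40.4% against 29.9% of all genes, with a median of −0.31. In media 3 were called higher in C57epi.1 and 35 higher in Bm12.4, with a median of −1.07. The difference over this list was thus smaller in supernatant than in media. The median response difference was 0.59, with 7 called positive and 4 called negative. Parp12, an antiviral ADP-ribosyltransferase, stood at 3.89, 3.99, 3.79 and 3.76 in C57epi.1 and at 11.21, 11.21, 11.25 and 11.31 in Bm12.4, 167-fold apart (SE 0.21, adjusted p = 8.85e-18). Its media means were 4.07 and 8.37. Cmpk2 stood at 3.95, 3.43, 3.75 and 4.21 in C57epi.1 and at 10.71, 10.38, 10.34 and 10.24 in Bm12.4, 95.8-fold apart (SE 0.27, adjusted p = 5.7e-15), and had the largest response difference of the genes named here (−5.40, adjusted p = 1.12e-08). Ifih1, a sensor of double-stranded RNA, was 50.5-fold higher in Bm12.4 (adjusted p = 1.59e-12). Treated C57epi.1 means of Parp12 (3.86) and Cmpk2 (3.84) were no higher than its media means (4.07 and 3.89).

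Cmpk2 lies next to Rsad2 (viperin, an antiviral enzyme) on chromosome 12, and the 2 genes differed to unequal extents. Rsad2, named after its values were seen, stood at 11.53, 11.28, 11.13 and 11.02 in C57epi.1 and at 12.43, 12.39, 12.31 and 12.29 in Bm12.4, 2.17-fold apart (−1.11, SE 0.27, adjusted p = 0.00269), and its response difference was not called (0.41, adjusted p = 0.707). Upstream sequences of Cmpk2 (chr12:26468965-26469116, plus strand, 152 bases, ending where the annotated gene begins), Rsad2 (chr12:26456453-26456702, minus strand) and Parp12 (chr6:39118350-39118599, minus strand) are shown for these contrasting genes, with the same marking.
Cmpk2: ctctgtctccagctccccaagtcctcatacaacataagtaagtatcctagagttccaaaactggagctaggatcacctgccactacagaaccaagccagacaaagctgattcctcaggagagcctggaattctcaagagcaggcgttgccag
Rsad2: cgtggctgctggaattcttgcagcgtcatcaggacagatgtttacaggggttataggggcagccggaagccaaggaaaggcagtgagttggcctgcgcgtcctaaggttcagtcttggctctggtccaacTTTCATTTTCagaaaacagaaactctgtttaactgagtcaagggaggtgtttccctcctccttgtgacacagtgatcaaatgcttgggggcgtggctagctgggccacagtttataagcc
Parp12: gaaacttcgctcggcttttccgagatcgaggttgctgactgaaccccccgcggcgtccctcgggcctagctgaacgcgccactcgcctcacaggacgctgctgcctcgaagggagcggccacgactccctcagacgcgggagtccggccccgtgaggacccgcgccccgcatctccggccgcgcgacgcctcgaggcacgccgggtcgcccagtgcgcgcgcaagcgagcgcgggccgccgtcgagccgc
Rsad2 held 1 match to the paired GAAA repeats, starting 120 bases before its start, and Cmpk2 and Parp12 held 0 matches in these windows. A match is a description of letters and was not tested as a site.

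Other interferon genes were higher in C57epi.1. RNA of the dynamin-like GTPase genes Mx1 (2.62-fold, response difference 1.59, adjusted p = 0.00148) and Mx2 (3.45-fold, 2.08, adjusted p = 0.000158) was higher there in supernatant. So was that of the Schlafen genes Slfn5 (4.21-fold, 2.17, adjusted p = 1.45e-07) and Slfn1 (4.04-fold, 2.17, adjusted p = 0.000143). In media these genes were not called (adjusted p = 0.553, 0.383, 0.708 and 0.699). These 4 were named after their values were seen. Ly6e, Bst2 and Ifitm3 were not called in supernatant (−0.04, −0.24 and −0.28). Ly6e had media means of 8.36 and 4.86 and so a response difference of −3.54 (adjusted p = 2.83e-09). Phf11d had supernatant means of 10.09 and 10.96 and media means of 4.35 and 7.98, a response difference of 2.75 (adjusted p = 8.04e-06). Ifit1 was not called in limma (−1.27, SE 0.49, adjusted p = 0.0544) and was called under 6 alternatives, among them the arrays compared alone (adjusted p = 3.6e-05). Of 23 guanylate-binding and immunity-related GTPases, which attack pathogen-containing vacuoles, 10 had a probe set annotated to them alone. The rest, such as Gbp2, Igtp and Irgm2, were not analysed. Of the 10, 1 was called (10.0%, against 29.9% of all genes), Gbp11, 2.31-fold higher in Bm12.4 (adjusted p = 5.08e-05). In media 5 of the 10 were called higher in Bm12.4 and 0 higher in C57epi.1. With replicates 3 and 4 alone 5 of these 10 were called and 36 of the 52 type I genes.

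Of the T cell chemokines, Cxcl9 and Cxcl11 were higher in C57epi.1 and Cxcl10 was not called. The receptor of this chemokine group is Cxcr3, found on activated T cells. Only RNA was read here, so functional protein was not shown for any of the 3. Cxcl9 stood at 11.41, 11.11, 10.78 and 10.52 in C57epi.1 and at 8.97, 8.44, 8.50 and 8.27 in Bm12.4, 5.32-fold apart (2.41, SE 0.23, adjusted p = 1.44e-08). Cxcl11 stood at 9.80, 9.15, 8.47 and 9.24 against 6.77, 6.48, 6.13 and 5.86, a 7.24-fold difference (SE 0.21, adjusted p = 2.08e-10). Cxcl10 stood at 13.86, 13.70, 13.62 and 13.55 against 13.63, 13.55, 13.51 and 13.44 (0.15, SE 0.23, adjusted p = 0.743), and its groups overlapped. The response difference was 2.33 for Cxcl9 (adjusted p = 0.000133) and 2.90 for Cxcl11 (adjusted p = 2.27e-06), from media means within 0.1 of each other.

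Other chemokines were called in both directions. Cxcl5, which draws neutrophils, was 12.2-fold higher in Bm12.4 (8.84, 8.49, 8.09 and 8.64 against 11.60, 11.97, 12.56 and 12.34, adjusted p = 3.51e-07), Cxcl1 differed by −0.97 and Cxcl12 by −1.90. Cxcl15 was 5.79-fold higher in C57epi.1 (adjusted p = 0.0126), with 4.23 in replicate 1 and 5.95 to 7.13 in the others. It was not called without C57epi.1 replicate 4 (2.11, adjusted p = 0.0558). Of 36 chemokines, 4 were called higher in C57epi.1 and 7 higher in Bm12.4, a share of 30.6%, near the 29.9% of all genes.

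Enzymes that act against intracellular bacteria were split between the lines. Nos2, the inducible nitric oxide synthase, stood at 8.41, 9.64, 9.88 and 9.96 in C57epi.1 and at 7.40, 7.23, 6.75 and 6.37 in Bm12.4, 5.8-fold higher in C57epi.1 (2.54, SE 0.34, adjusted p = 2.73e-06), with a response difference of 2.41 (adjusted p = 0.00468). Acod1, which makes itaconate, stood at 6.53, 7.59, 7.66 and 7.43 in C57epi.1 and at 10.08, 10.11, 9.98 and 9.43 in Bm12.4, 6.05-fold higher in Bm12.4 (−2.60, SE 0.19, adjusted p = 2.54e-10), with a response difference of −2.34 (adjusted p = 1.52e-05). In media neither gene was called between the lines (adjusted p = 0.869 and 0.416). The arginine transporter Slc7a2 was 4.1-fold higher in Bm12.4 and ornithine decarboxylase Odc1 3.29-fold higher in C57epi.1. Of 20 genes of nitric oxide, arginine, tryptophan and itaconate enzymes, 5 were called higher in C57epi.1 and 3 higher in Bm12.4.

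**Figure D4:**
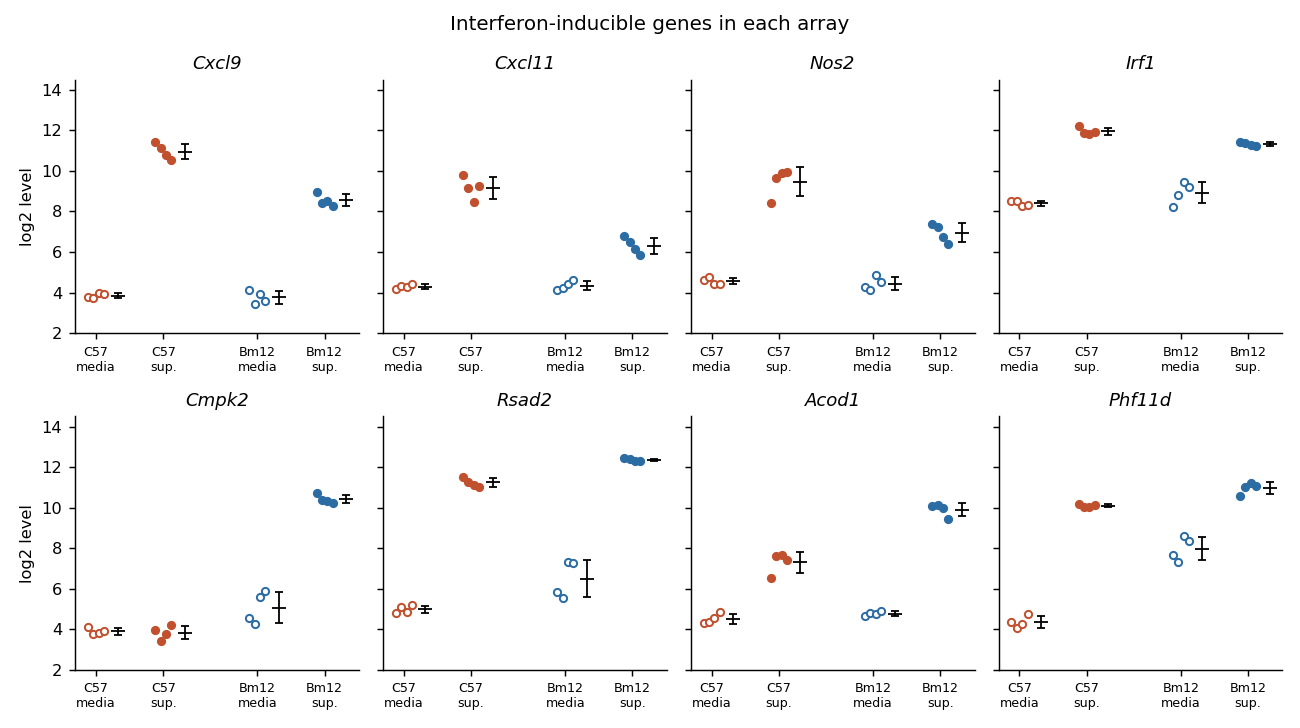
Log2 level (y axis) of 8 interferon-inducible genes in each array of C57epi.1 (orange) and Bm12.4 (blue), in media (open points) and in supernatant (filled points), with the mean and SD of 4 arrays in black. Cxcl9, Cxcl11 and Nos2 were higher in treated C57epi.1 and Acod1 and Cmpk2 in treated Bm12.4, while in media the means of Cxcl9, Cxcl11, Nos2 and Acod1 lay close together.

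Several ligands that regulate T cells did not pass the test. Cd274 (PD-L1, 0.04, SE 0.15, adjusted p = 0.919), Cd40 (−0.11, adjusted p = 0.543), Cd80 (−0.28, adjusted p = 0.179), Cd86 (0.05, adjusted p = 0.83) and the adhesion ligand Icam1 (0.31, adjusted p = 0.15) were among them. Cd80 was called with replicates 1 and 2 alone (−0.62, adjusted p = 0.0186) and Icam1 with arrays centred on their medians (adjusted p = 0.0383). Lgals3, a sugar-binding lectin, was 19.6-fold higher in C57epi.1 and the adhesion ligand Vcam1 2.07-fold higher in Bm12.4. Of 28 such genes, 4 were called in each direction, a share of 28.6%, near the 29.9% of all genes. Neither of the cytokines Il6 (−0.12, adjusted p = 0.768) or Tnf (0.05, adjusted p = 0.924) passed the test. Tnfsf18, a T cell costimulator, was 21.7-fold higher in Bm12.4 (5.24, 5.29, 4.47 and 4.54 against 9.55, 9.17, 9.69 and 8.90), Il16 was 8.25-fold higher there, and Lif was 2.04-fold higher in C57epi.1. Of 45 cytokines and colony-stimulating factors, 6 were called in each direction, a share of 26.7%.

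Cytokine receptors were called mostly in the direction of Bm12.4. Of 36 cytokine receptors, 5 were called higher in C57epi.1 and 15 higher in Bm12.4, against the 14.3% and 15.6% over all genes. Il13ra1, a chain of the receptors for interleukins 4 and 13, stood at 3.51, 3.69, 3.65 and 4.12 in C57epi.1 and at 10.30, 10.32, 10.55 and 10.53 in Bm12.4, 103-fold apart (SE 0.13, adjusted p = 7.75e-21). The decoy receptor Il13ra2 was 19.2-fold and the leukaemia inhibitory factor receptor Lifr 12.2-fold higher in Bm12.4, each with a called response difference (−1.75 and −2.29). The interleukin 6 receptor chains Il6ra (−1.13) and Il6st (−0.83), Osmr (−1.40) and the tumour necrosis factor receptors Tnfrsf1a (−0.97) and Tnfrsf1b (−1.46) were higher in Bm12.4. The death receptor family member Tnfrsf21 was 6.99-fold higher in C57epi.1.

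Among sensors, Tlr2, which detects bacterial lipoproteins, was 6.14-fold higher in Bm12.4 (8.07, 7.44, 7.40 and 7.49 against 9.99, 10.21, 10.44 and 10.23, adjusted p = 5.56e-10) with a response difference of −1.41 (adjusted p = 0.00531), and Tlr4 was 3.34-fold higher. The inflammasome protease Casp1 was 7.78-fold higher in Bm12.4 (6.12, 6.25, 6.11 and 5.63 against 8.70, 9.13, 9.03 and 9.09), and the peptidoglycan sensor Nod1 differed by −1.70. Aim2, the cytosolic DNA sensor, was 15.8-fold higher in C57epi.1 (7.96, 7.97, 8.12 and 8.03 against 3.80, 3.94, 4.27 and 4.16, adjusted p = 2.65e-18). The groups did not overlap in any of these genes. The genes were mostly picked for large called differences, so this adds no support, and 32.9% of all genes do not overlap. Of 34 genes of pattern recognition and the inflammasome, 4 were called higher in C57epi.1 and 8 higher in Bm12.4. Called members made up 35.3%, against 29.9% of all genes.

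Each of the 4 lists here held more members called higher in Bm12.4 than in C57epi.1, in supernatant and in media. For cell death genes in media these counts were close, at 6 and 5. Of 24 genes of NF-kappaB subunits and feedback, 4 were called higher in C57epi.1 and 9 higher in Bm12.4. The feedback inhibitor Tnip1 was 3.39-fold higher in Bm12.4 (7.53, 7.29, 7.17 and 7.30 against 8.94, 9.08, 9.41 and 8.90), with a response difference of −1.51 (adjusted p = 7.9e-06), Tnfaip2 was 26.7-fold higher and Nfkbia differed by −0.55. Of 27 acute phase and antimicrobial proteins, 1 was called higher in C57epi.1 and 10 higher in Bm12.4. The lipopolysaccharide-binding protein Lbp stood at 5.89, 7.58, 7.43 and 8.06 in C57epi.1 and at 12.76, 13.04, 13.32 and 13.14 in Bm12.4, 56.7-fold apart (SE 0.78, adjusted p = 3.03e-06). Saa3 (21.7-fold), the copper carrier Cp (6.39-fold) and the protease inhibitor Serpina3n (6.31-fold) followed. Of 28 complement and coagulation regulators, 3 were called higher in C57epi.1 (the clotting initiator F3, 3.51-fold) and 7 higher in Bm12.4. The C1 inhibitor Serping1 was 4.67-fold higher in Bm12.4 with a response difference of −1.98 (adjusted p = 9.34e-05). Of 20 cell death genes, 2 were called higher in C57epi.1 (Ripk3, 1.92-fold) and 7 higher in Bm12.4 (Pmaip1, 2.63-fold, and Bcl2l1, 1.96-fold). The shares called in these 4 lists, in the order given, were 54.2%, 40.7%, 35.7% and 45.0%, against 29.9% of all genes. In media 8, 8, 6 and 6 of their members were called higher in Bm12.4 and 2, 2, 1 and 5 higher in C57epi.1. Called response differences were few, with 1, 3, 1 and 0 negative and 2, 0, 1 and 0 positive.

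Among prostaglandin genes, 2 of synthesis were higher in C57epi.1 and 1 of breakdown was higher in Bm12.4. The inducible cyclooxygenase Ptgs2 stood at 11.32, 11.56, 11.75 and 11.36 in C57epi.1 and at 8.70, 8.34, 9.58 and 8.44 in Bm12.4, 6.65-fold higher in C57epi.1 (adjusted p = 6.15e-08), and the prostacyclin synthase Ptgis was 8.79-fold higher there. The prostaglandin-degrading enzyme Hpgd stood at 3.04, 2.86, 3.01 and 3.14 against 9.08, 9.44, 9.70 and 9.60, 87-fold higher in Bm12.4 (adjusted p = 9.26e-18), and the aldo-keto reductase Akr1c18 was 63.8-fold higher there. The response difference was not called in these 4 genes. Of 26 prostaglandin and eicosanoid genes, 4 were called higher in C57epi.1 and 6 higher in Bm12.4. In this list 38.5% were called, against 29.9% of all genes.

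The lines also differed in genes of tissue identity. Of 17 mesothelial markers, genes of the lining of body cavities and of the serosal side of the tract, 10 were called higher in Bm12.4 and 2 higher in C57epi.1 (median −1.27, against 0.00 over all genes and −0.68 for these genes in media). Nkain4 stood at 5.75, 5.87, 5.63 and 5.76 in C57epi.1 and at 12.16, 12.36, 12.09 and 12.23 in Bm12.4, 87.9-fold apart. Lrrn4 (54.5-fold) and the retinoic acid enzymes Aldh1a1 (15.3-fold) and Aldh1a2 (6.99-fold) were higher in Bm12.4, while Wt1 (0.03) and Msln (0.29) were not called and Gpm6a was higher in C57epi.1 (2.28). Of 18 keratins, 5 were called higher in C57epi.1 and 2 higher in Bm12.4, with the basal keratin Krt14 13.4-fold higher in C57epi.1. Shares called were 70.6% of the mesothelial markers and 38.9% of the keratins, against 29.9% of all genes. Of 35 genes of epithelial junction and polarity, 6 and 3 were called, a share of 25.7% against 29.9% of all genes. The placental-type cadherin Cdh3 was 31.3-fold higher in C57epi.1 (9.75, 9.51, 9.18 and 9.14 against 4.58, 4.36, 4.27 and 4.49) and Cd24a 27.9-fold higher in Bm12.4.

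Of 29 reproductive tract regulators and receptors, 31.0% were called, near the 29.9% of all genes. The 1 called higher in C57epi.1 was Foxa2, a factor of uterine glands (4.84-fold). The 8 called higher in Bm12.4 included the signalling ligand Wnt5a (20.9-fold) and the transcription factors Tbx18 (11.3-fold) and Emx2 (2.49-fold). Of 37 Hox genes, which record position along the body axis, 11 were called higher in C57epi.1 and 8 higher in Bm12.4, with Hoxa11 14.2-fold higher in C57epi.1 (7.18, 8.03, 7.79 and 7.70 against 3.99, 3.89, 3.78 and 3.73). Hoxc10 (5.98-fold) and Hoxb9 (4.87-fold) were higher in C57epi.1 too. The share of Hox genes called was 51.4%, against 29.9% of all genes. The median over Hox genes was 0.03, with 0.27 in replicates 1 and 2 and −0.07 in replicates 3 and 4.

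Each group of matrix genes held members called in both directions. In the order given below, 55.2%, 55.6%, 61.5%, 48.1% and 53.6% of each group were called, against 29.9% of all genes. Of 29 collagens, 7 were called higher in C57epi.1, such as Col1a2 (71.9-fold), the basement membrane chain Col4a1 (5.99-fold) and Col11a1 (5.32-fold), and 9 higher in Bm12.4, such as Col8a1 (23.5-fold). Of 27 genes of collagen processing, crosslinking and elastic fibres, 9 and 6 were called. Lox was 66.5-fold higher in C57epi.1 (9.82, 10.10, 10.19 and 10.52 against 3.95, 4.21, 4.00 and 4.25), and the elastic fibre genes Fbln1 (56.4-fold), Eln (5.82-fold) and Fbln5 (5.07-fold) were higher in Bm12.4. Of 26 small proteoglycans and matricellular proteins, 5 and 11 were called, with Prelp (99.7-fold) and Lum (7.78-fold) higher in Bm12.4 and Ccn2 (9.1-fold) and Tnc (6.83-fold) in C57epi.1. Of 27 matrix proteases and inhibitors, 4 and 9 were called. The plasminogen activators Plat (12.5-fold) and Plau (11.3-fold), Adamts12 (15.8-fold) and Serpinb2 (11.6-fold) were higher in Bm12.4. Of 28 integrins and laminins, 8 and 7 were called, with Lama5 (9.1-fold) and Itga3 (4.87-fold) higher in C57epi.1 and Nid2 (16.2-fold) and Itga6 (5.93-fold) in Bm12.4.

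Contractile genes were called in 1 direction. Of 20, 8 were higher in C57epi.1 and 0 higher in Bm12.4 in limma, where the 12 others included Tagln (0.06), Cnn1 (0.00) and Myh11 (−0.04), genes of mature smooth muscle that stood between 4.2 and 4.8 in both lines. Myh10 stood at 10.65, 11.02, 11.07 and 11.29 in C57epi.1 and at 4.55, 4.67, 4.58 and 4.72 in Bm12.4, 83.1-fold apart. The smooth muscle actin Acta2 (8.64, 8.91, 9.28 and 9.60 against 5.10, 5.66, 5.46 and 5.20) was 13.5-fold and the tropomyosin Tpm2 8.44-fold higher in C57epi.1. Of 22 mesenchymal adhesion and transition factors (59.1% called), 6 were called higher in C57epi.1 (Fn1, 3.85-fold) and 7 higher in Bm12.4. The TGF-beta co-receptor Eng was 51.8-fold, the PDGF receptor Pdgfra 4.73-fold and the transition factor Zeb2 2.89-fold higher in Bm12.4.

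Growth factor ligands and receptors were called in both directions. Shares called were 68.8% of the ligands and 41.4% of the receptors, against 29.9% of all genes. They were 81.8% of the insulin-like growth factor binding genes and 52.8% of the TGF-beta and BMP genes. For axon guidance genes and for S100 and annexin genes they were 55.0% and 52.2%. Of 32 growth factor ligands, 12 were called higher in C57epi.1 and 10 higher in Bm12.4. Fgf7, which acts on epithelial cells, stood at 10.75, 11.15, 10.94 and 11.23 in C57epi.1 and at 4.89, 4.90, 4.71 and 4.88 in Bm12.4, 72.1-fold apart, while Angpt1 (121-fold), the lymphatic growth factor Vegfd (21.7-fold) and Ptn (18.2-fold) were higher in Bm12.4. Of 29 growth factor receptors, 6 were called in each direction, with Fgfr1 18.4-fold and Egfr 3.24-fold higher in Bm12.4 and Epha2 3.32-fold higher in C57epi.1. Of 11 insulin-like growth factor binding genes, 4 and 5 were called. Igfbp5 (29.1-fold), Igfbp3 (15.8-fold) and Igfbp6 (7.61-fold) were higher in Bm12.4. Of 36 genes of TGF-beta and BMP signalling, 12 and 7 were called, with Gdf10 (85.3-fold), Gdf6 (14.8-fold) and the co-receptor Tgfbr3 (9.56-fold) higher in Bm12.4. Of 42 Wnt genes, 4 and 8 were called, a share of 28.6%, near the 29.9% of all genes. Among them, the receptors Fzd1 (5.73-fold) and Fzd4 (2.92-fold) were higher in Bm12.4 and Lgr4 (3.05-fold) and Wnt11 (2.9-fold) in C57epi.1. Of 40 axon guidance genes, 13 and 9 were called (Sema3d, 13.6-fold, and Efna5, 4.67-fold, higher in C57epi.1). Of 23 S100 and annexin genes, 5 and 7 were called (Anxa6, 9.55-fold higher in C57epi.1, and S100a16, 6.96-fold higher in Bm12.4).

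In metabolism, genes of glucose use were mostly higher in C57epi.1. Of 28 genes of glycolysis and hypoxia, 15 were called higher in C57epi.1 and 6 higher in Bm12.4 (median 0.75, and 0.69 in media). Those higher in C57epi.1 included the glucose transporters Slc2a3 (6.13-fold, 7.40, 7.27, 7.16 and 6.92 against 4.49, 4.21, 4.79 and 4.80) and Slc2a1 (1.61), phosphofructokinase Pfkl (1.18), Pkm (0.80), Ldha (0.82) and the hypoxia factor Hif1a (0.81). Pdk1, which restrains pyruvate entry into mitochondria, was 11.3-fold and the oxygen-sensing hydroxylase Egln3 5.39-fold higher in Bm12.4. Car9, a hypoxia marker, was 8.71-fold higher in C57epi.1 with 5.52 in replicate 1 and 8.56 to 8.99 in the others, and was not called with replicates 1 and 2 alone (2.17, adjusted p = 0.144). The count of called members was 13 with replicates 1 and 2 alone and 26 with replicates 3 and 4 alone, at medians of 0.39 and 1.04. The median level of the list ran from 8.795 to 10.2 over the C57epi.1 arrays and from 9.14 to 9.415 over the Bm12.4 arrays. By that measure the lines overlapped. Of 24 cholesterol genes (58.3% called), 9 were called higher in C57epi.1, such as the synthesis enzymes Idi1 (2.7-fold), Msmo1 (2.44-fold) and Fdps (2.27-fold). The other 5 called were higher in Bm12.4, where the efflux pump Abca1 was 20-fold higher.

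Detoxifying enzymes were more often higher in Bm12.4. Of 43 genes of glutathione, aldehyde and redox enzymes, 5 were called higher in C57epi.1 and 18 higher in Bm12.4 (median −0.20, and −0.47 in media). In this list 53.5% were called, against 29.9% of all genes. The aldehyde dehydrogenase Aldh3a1 stood at 4.69, 4.80, 4.75 and 5.19 in C57epi.1 and at 10.27, 9.79, 9.86 and 9.95 in Bm12.4, 34.5-fold apart, and the glutathione transferase Gstm5 was 14.1-fold higher in Bm12.4. Gsta4, another transferase, was 35-fold higher in C57epi.1. Hmox1, which breaks down haem, was 4.67-fold higher in C57epi.1 (11.36, 12.17, 12.21 and 12.06 against 9.83, 9.76, 9.64 and 9.68, adjusted p = 3.44e-08) with a response difference of 1.91 (adjusted p = 0.000837).

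Cell cycle genes were seldom called. Of 47, 1 was higher in C57epi.1 (Cdc20, 2.29-fold, adjusted p = 0.0397) and 4 higher in Bm12.4, a share of 10.6% against 29.9% of all genes. The cell cycle inhibitors Cdkn2b (6.31-fold), Cdkn2c (3.04-fold) and Cdkn2a (1.6-fold) were among those higher in Bm12.4. Cdc20 lost its call without any 1 of 7 arrays (adjusted p from 0.0526 to 0.138), and Cdkn2a without any 1 of 4 (adjusted p from 0.0505 to 0.145). With replicates 1 and 2 alone 8 of the 47 were called and with replicates 3 and 4 alone 19, at medians of −0.07 and 0.49, so this list moved with the replicate set.

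**Figure D5:**
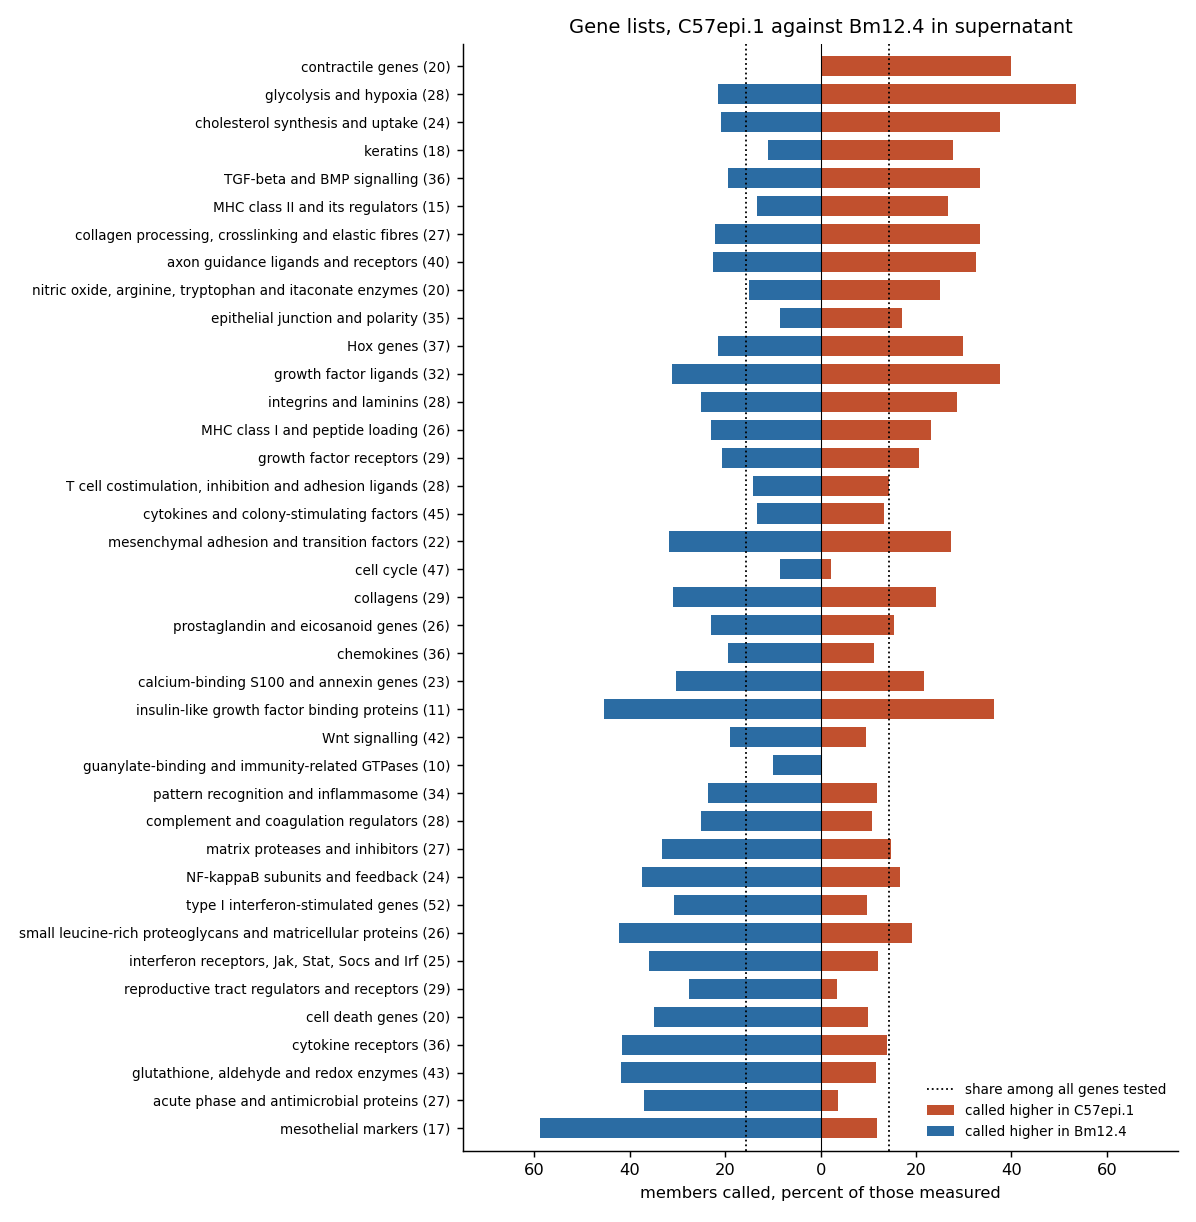
Share of the measured members (number in brackets) of the gene lists described above, cell markers left out, called higher in C57epi.1 (orange, to the right) and higher in Bm12.4 (blue, to the left) in supernatant, with dotted lines at the shares over all genes, 14.3% and 15.6%. Contractile and glycolysis genes lie to the C57epi.1 side and mesothelial, acute phase, detoxifying and cytokine receptor genes to the Bm12.4 side.

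The largest response differences include genes outside the immune groups above. Xdh, the xanthine oxidoreductase of purine breakdown, stood at 10.03, 10.05, 9.95 and 10.06 in C57epi.1 and at 11.81, 11.96, 12.07 and 12.09 in Bm12.4 in supernatant, with media means of 4.96 and 10.28. The difference between the lines was thus −5.31 in media and −1.96 in supernatant, a response difference of 3.35 (adjusted p = 2.18e-06). Apela, a peptide ligand of the apelin receptor, stood at 6.70, 7.92, 7.11 and 6.91 in C57epi.1 and at 2.83, 3.12, 2.91 and 2.83 in Bm12.4 (response difference 3.26, adjusted p = 2.27e-06). The carbonic anhydrase Car6 (3.17, adjusted p = 0.045), the stress gene Gadd45a (2.60, adjusted p = 0.000276), the lipid transporter Mfsd2a (2.60, adjusted p = 0.0118) and Creld2 (2.42, adjusted p = 0.00201) followed. On the other side were Prelp (−2.69, adjusted p = 0.0414), Pdgfra (−2.64, adjusted p = 0.00469) and Apol10a (−2.58, adjusted p = 3.04e-07), with Apol10a at 3.30, 3.44, 3.28 and 3.62 in C57epi.1 and at 5.54, 6.29, 6.50 and 6.52 in Bm12.4. Gadd45a was not called with replicates 1 and 2 alone (adjusted p = 0.0607), nor Mfsd2a with the arrays compared alone (adjusted p = 0.0631). Car6 and Prelp rested on a narrow margin, and each lost the call under 14 alternatives, with adjusted p up to 0.125 and 0.137.

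In 39 genes the called difference had opposite signs in media and supernatant, and all 39 had a called response difference. Haptoglobin (Hp) differed by 0.87 in media and −1.48 in supernatant (4.75, 4.69, 4.75 and 4.77 in C57epi.1 against 6.05, 6.39, 6.45 and 5.97 in Bm12.4). Creld2, a chaperone of the endoplasmic reticulum, differed by −0.86 and 1.56, Phlda1 by −1.33 and 0.85, the mitochondrial carrier Slc25a25 by −0.78 and 0.90, the thioesterase Acot2 by −0.76 and 0.85, and Fam110c by −0.81 and 0.84. The response difference of Acot2 (adjusted p = 0.153) and Fam110c (adjusted p = 0.405) was not called with replicates 1 and 2 alone. In supernatant, Acot2, Fam110c and Phlda1 each lost the call in 1 of the replicate sets, Phlda1 also without C57epi.1 replicate 1 (0.63, adjusted p = 0.0745), and Fam110c also without any 1 of 4 arrays (adjusted p from 0.0522 to 0.0616).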

How the data were processed

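Total RNA of each culture was purified on columns with DNase treatment and 100 ng was labelled for the arrays, per the labels' protocols. The submitters' processing notes name GCOS, RMA and Partek 6.2, with no order. The authors deposited log2 values with 2 decimals for 28853 probe sets. No detection p came with the deposited values, so whether 1 gene's low signal is above background is unknown, and the number of arrays limits precision.

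Probe sets were named by the platform annotation: 21789 had 1 symbol, 1621 several and 5443 none. The first kind gave 19938 genes, and for 999 genes with several probe sets the brightest on average was used. Groups were taken from the labels. limma 3.58.1 in R 4.3.3 (statmod 1.5.0) fitted a mean per group over 24 arrays (18 residual degrees of freedom) and tested the lines in supernatant, in media, and the response difference. The supernatant and media comparisons share no arrays, only the residual spread. P-values were adjusted by Benjamini-Hochberg over all genes and called under 0.05. The procedure was tested on simulated data.

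Genes named were the 12 largest called differences each way whose arrays did not overlap, the 8 largest response differences each way, the 6 largest of opposite sign, the 4 largest called members of each list, and a set of interferon, MHC and marker genes. Predicted, Riken, histone and olfactory receptor genes and small RNAs were passed over. Other genes named were chosen after their values were seen. The comparison and the gene lists were chosen with earlier results of these data known. Of 1334 list entries, 1228 were measured. Alternatives were the arrays compared alone, a replicate block, a trended robust prior, array weights, quantile normalization, median centring, a filter on low values, the mean of probe sets, the replicate sets, and leaving out each array.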

Additional observations from a re-analysis of the deposited data

Results flagged for a closer look

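Single arrays stood far from the other three of their group in 26 of 460 groups of 4 examined over 230 named genes, where chance gives about 1 in 20. Of the 26, 15 fell on C57epi.1 supernatant replicate 1 and 6 on Bm12.4 supernatant replicate 1.

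In C57epi.1 replicate 1 the low values were Car6 (6.66), Car9 (5.52), Cdkn2a (6.23), Krt19 (10.90), Lgals3 (9.86), Lifr (6.66), Ptgis (9.18), Pvr (8.57), Slc7a2 (6.58) and Smtn (8.84). The high ones were Ifit1 (11.61), Lif (8.60), Mx1 (10.51), Odc1 (11.11) and Tlr2 (8.07). In Bm12.4 replicate 1 the low values were C1rl (8.63), Ctss (5.53), Fcgr3 (4.85), H2-Q4 (9.21), Lum (5.37) and Mmp8 (5.90). The remaining values were Psmb9 in C57epi.1 replicate 2 (5.81), Col8a1 in C57epi.1 replicate 3 (4.20), Col4a1 and Fgf7 in Bm12.4 replicate 3 (5.68 and 4.71) and Cdh1 in Bm12.4 replicate 4 (4.46). Without C57epi.1 replicate 1 the supernatant comparison gave 5504 calls, and without Bm12.4 replicate 1 it gave 6057.

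Differences between the lines that themselves differed between supernatant and media, by the interaction test, were positive for Xdh (3.35), Apela (3.26), Car6 (3.17), Cxcl11 (2.90), Phf11d (2.75), Gadd45a (2.60), Mfsd2a (2.60), Creld2 (2.42), Nos2 (2.41), Cxcl9 (2.33), Phlda1 (2.19), Slc25a25 (1.68), Fam110c (1.65), Acot2 (1.61) and Irf1 (1.14). They were negative for Cmpk2 (−5.40), Psmb9 (−4.09), Ly6e (−3.54), Parp12 (−3.09), H2-Q4 (−2.79), Prelp (−2.69), Pdgfra (−2.64), Apol10a (−2.58), Hp (−2.35), H2-Ab1 (−1.79) and Tap1 (−1.13).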

How the results depend on the processing

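The count of genes called in supernatant, 5968, lay between 4958 and 7895 under the alternatives, and between 5250 and 6057 with each array left out in turn. The count in media, 4873, was 3007 with the arrays compared alone and lay between 4299 and 5042 with an array left out. The count of response differences, 803, was 438 with the arrays compared alone, 2675 with array weights, 426 with replicates 1 and 2 alone and 2401 with replicates 3 and 4 alone, and lay between 534 and 1263 with an array left out. The weights did not reach their convergence tolerance. The cause was not tested. Of 251 named results, 27 changed their call under at least 1 alternative and 0 reversed. These results were the supernatant differences of 230 genes and 21 response differences, the largest each way and those of opposite sign. Response differences of other genes, such as Tap1, Psmb8, Nos2, Cxcl9 and Irf1, were not checked gene by gene under the alternatives. Replicate numbers are shared by the groups, and the labels do not say whether same-numbered arrays were handled together. Deviations of same-numbered arrays from their group means correlated positively in every pair (0.27, 0.0836, 0.139 and 0.212). Of 8 arrays, 6 correlated best with their own number. The main fit did not use the replicate number. With the replicate block the counts were 7305 in supernatant, 4835 in media and 883 response differences. Under it Tap2 (adjusted p = 0.0278), Cd74 (adjusted p = 0.00522) and Ifit1 (adjusted p = 0.000131) were called in supernatant, and the response difference of Car6 was not (adjusted p = 0.0997). Levels near the low end of the scale limit the folds of genes that 1 line hardly expressed.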

Other observations

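Genes of protein folding in the endoplasmic reticulum were higher in C57epi.1 in supernatant. This list of 22 chaperones and stress genes was written after values were seen, so its counts are a description. Of the 22, 19 were called higher in C57epi.1 and 0 higher in Bm12.4 in limma, a share of 86.4% against 29.9% of all genes. Their median was 1.24, against 0.02 in media and 0.00 over all genes in supernatant. The median was 0.93 with replicates 1 and 2 alone and 1.54 with replicates 3 and 4 alone. Herpud1, which serves the removal of misfolded proteins, differed by 2.76 (adjusted p = 7.23e-09). The stress sensor Atf6 differed by 1.88, Ppp1r15a, which restores translation after stress, by 1.84, and the chaperones Hyou1, Sdf2l1, Manf and Hspa5 by 1.65, 1.64, 1.51 and 1.34. The response difference was called in 14 of the 22, with Herpud1 at 2.01 (adjusted p = 0.00166) and Sdf2l1 at 1.88 (adjusted p = 0.00476). Dnajb11, Sel1l and Syvn1 were not called between the lines.

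Xist, the RNA that coats the inactive X chromosome, stood at 8.18, 8.46, 8.49 and 8.22 in C57epi.1 and at 3.87, 3.39, 3.57 and 3.47 in Bm12.4, a 27.1-fold difference (adjusted p = 1.26e-17). It was chosen after its values were seen.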
